A study of Mus musculus with 3 samples.

Results

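The 10 genes described here cover the entry of glucose into neurons and the first, committing steps of its breakdown: the glucose transporters Slc2a1 and Slc2a3, the hexokinases Hk1 and Hk2, glucose-6-phosphate isomerase Gpi1, the phosphofructokinase subunits Pfkl, Pfkm and Pfkp, and the bifunctional regulators Pfkfb3 and Pfkfb4. They were chosen by gene symbol, with earlier results of these data known, and all 10 were found among the 24054 genes of the deposited table. RNA was sequenced from primary cortical neurons of C57BL/6 mice at embryonic day 17, grown for 7 days in culture. Control neurons stayed at 21% oxygen. Those of the hypoxia group spent 7 hours at 0.2% oxygen with no thyroid hormone, and those of the group called hypoxia with T3 spent the same 7 hours at 0.2% oxygen in the presence of 5 nM T3. T3, or triiodothyronine, is the thyroid hormone that binds nuclear receptors. Each of the 3 groups had 1 library, and how many animals or cultures were pooled into it is not stated in the labels. The T3 content of the control medium is not stated either.

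Glucose crosses the neuronal membrane mainly through GLUT3, the product of Slc2a3, whereas GLUT1, the product of Slc2a1, is the form of the blood-brain barrier and of glia. Hexokinase then traps glucose as glucose-6-phosphate, the isomerase turns it into fructose-6-phosphate, and phosphofructokinase commits it to glycolysis. PFKFB enzymes make and remove fructose-2,6-bisphosphate, the strongest allosteric activator of phosphofructokinase. When oxygen is short, hypoxia-inducible factor (HIF), whose alpha subunit is otherwise degraded, binds promoters and enhancers of many of these genes, and among the isoforms Slc2a1, Hk2 and Pfkfb3 are classical targets.

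The libraries held between 17118865 and 22533574 reads. Values are normalised read counts in CPM, the reads of a gene scaled to the effective size of its library. With 1 library per group there is no replicate error and no test across samples. Values in parentheses after a fold or ratio of members are therefore its 95% interval, which covers counting error only. The interval is exact (Clopper-Pearson) for the fold of a gene. For the ratio of 1 gene's reads to another's it is an approximate interval on the log scale. Folds of summed levels are given without one. A gene was called higher or lower where CPM + 1 differed at least 2-fold, among the 12692 genes whose mean reached 1 CPM. All 10 members passed that filter. Neuronal markers summed to between 8022 and 8374 CPM, with none of 10 at 0 reads. Within that sum Tubb3, a neuronal tubulin, was lower in hypoxia (1771 CPM in control, 873 without and 739 with T3) and Nefl, a neurofilament, was higher (75.4, 171 and 185 CPM in that order). Astrocyte markers summed to between 534 and 557 CPM and progenitor markers to between 700 and 746 CPM. The progenitor markers went both ways, with 5 of 10 above control in hypoxia. Hes5 was the 1 called lower (10.2, 1.38 and 1.40 CPM). Mki67 was also lower, though not called (69.4, 34.8 and 41.8 CPM), and Vim was higher (138, 209 and 191 CPM). The 10 endothelial and pericyte markers summed to between 2.81 and 3.52 CPM and the 10 microglial markers to between 8.57 and 10.4 CPM. Of the endothelial and pericyte markers, 5 had 3 reads or fewer in control, 6 in hypoxia and 6 with T3. Cldn5 had 1, 0 and 0 reads and Cdh5 1, 1 and 0. Pecam1, the highest of the list, had 28, 27 and 32, so reads of that marker were present throughout. Oligodendrocyte-lineage markers summed to 363 CPM in control, 215 in hypoxia and 218 with added T3, and 3 of 10 were called lower in hypoxia and 2 of 10 with T3, against 4.92% and 4.59% of all genes. The part of these cell types in the results below was not tested. In bulk RNA, fewer cells of a type and less RNA per cell cannot be told apart.

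In each isoform family, hypoxia and control differed more in 1 gene than in its sisters: Slc2a1 more than Slc2a3, Hk2 more than Hk1, Pfkl more than Pfkm and Pfkp, and Pfkfb3 more than Pfkfb4. Slc2a1, Slc2a3, Hk2, Pfkl and Pfkfb3, which are 5 of the 10 members, were at least 2-fold higher, against 1.99% of all genes compared. None was at least 2-fold lower, against 4.92% of all genes. The median log2 ratio of the members was 1.12, and that of all genes compared was 0.05. The other 5 members lay between a log2 ratio of -0.39 for Pfkfb4 and 0.97 for Gpi1, which was just short of the rule. At 1.5-fold, Gpi1 made it 6 of 10 higher and still none lower, against 8.46% and 13.8% of all genes. Scaling the libraries to equal totals moved the median of all genes to -0.10 and the calls among all genes from 252 higher and 624 lower (28.8% of calls higher) to 188 and 949 (16.5%), while 5 members remained higher. By rank among the 12692 genes, Hk2 stood at position 19 from the top, Slc2a1 at 31, Pfkfb3 at 47, Pfkl at 126 and Slc2a3 at 154.

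**Figure D1:**
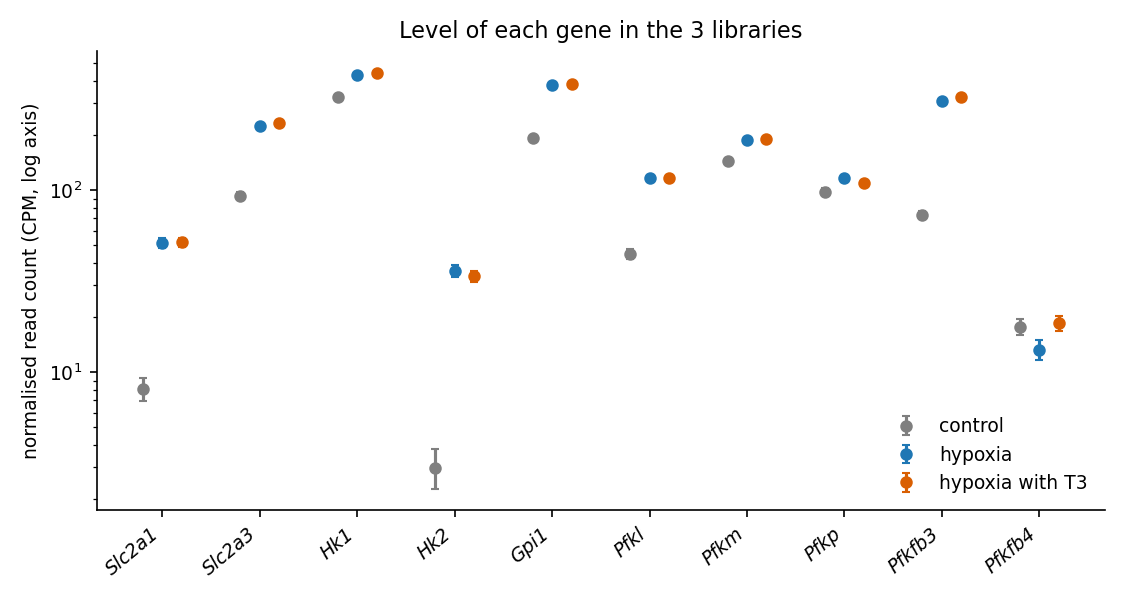
Normalised read count (CPM, log axis) of the 10 genes by library, 1 per group; bars are 95% Poisson intervals of the read count. Hk2 goes from 2.97 CPM in control to 36.2 and 33.6 in the hypoxic libraries, whereas Hk1 stays between 327 and 440 CPM.

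HIF binds DNA at a short core, ACGTG or GCGTG, on either strand. The 250 bases upstream of annotated start sites were searched for both cores in the RefSeq promoter table (GRCm38.p6, the assembly of mm10), which matched 14 starts of 9 members, all but Slc2a3. The stretches around the cores nearest to the start are shown, 30 bases each and written 5′ to 3′ on the strand of the gene, with the cores in capitals, to set the called isoforms beside their sister genes (for Pfkm, 1 of its starts). A capital CACGT or CACGC is a core on the opposite strand, and overlapping cores share their letters.
Slc2a1, chr4:119108684-119108713, plus strand: CACGCctctcagagtcccgccccggACGTG
Hk2, chr6:82774489-82774518, minus strand: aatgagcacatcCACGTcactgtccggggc
Pfkfb3, first start, chr2:11553972-11554001, minus strand: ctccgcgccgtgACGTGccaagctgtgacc
Pfkfb3, second start, chr2:11502126-11502155, minus strand: cacccttctctcCACGTGaaagggggctgg
Pfkl, chr10:78009889-78009918, minus strand: atttgtagactgGCGTGcgctccgcctttc
Hk1, second start, chr10:62340422-62340451, minus strand: ttggcactgtgccacCACGCGTGaccgcgc
Pfkm, first start, chr15:98092441-98092470, plus strand: aattaagtatgcCACGTGaagtaagtaatt
Pfkp, chr13:6648777-6648806, minus strand: cgctcgggcgggGCGTGggcggctcctgcg
Pfkfb4, chr9:108991773-108991802, plus strand: ttgacggatgggGCGTGcttagtccaaaag

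Counted from the start site, the Slc2a1 stretch runs from -61 to -32, that of Hk2 from -64 to -35, and those of Pfkfb3 from -72 to -43 and -65 to -36. The called genes shown and their weakly differing sisters alike held cores: 8 of the 9 members had one at some start, beside 62.6% of the 9536 genes compared that have an entry. Of the 14 starts 11 had one, beside 56.1% of the starts of genes compared. The starts without a core were the first of Hk1, that of Gpi1 and the fourth of Pfkm. Upstream here refers to RefSeq starts, whereas the gene coordinates given are from GENCODE. By those coordinates the Pfkl, Hk1 and Pfkfb3 stretches lie within their genes, and that of Pfkfb4 mostly so. Of the starts shown, those of Slc2a1, Hk1 and the first of Pfkfb3 were not found in the opening stretch of any GENCODE transcript. A match was counted anywhere in that stretch, so it need not be exact. Some bases just upstream of the starts shown for Slc2a1, Hk1, Pfkp, Pfkfb3 and Pfkfb4 overlap an exon of the same gene. A match of these letters is a description and not a bound site.

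The summed transcripts of Slc2a1 and Slc2a3 were 3.01-fold higher in hypoxia, behind the pair of Pfkfb3 and Pfkfb4 at 3.26-fold. They were ahead of the pair of Hk1 and Hk2 and of the phosphofructokinases, at 1.45-fold and 1.43-fold. Slc2a1, the GLUT1 gene (chromosome 4, 119108711 to 119137983, mm10), was at 8.06 CPM in control, 51.1 in hypoxia and 51.7 with added T3. Control was the low library, and the hypoxic libraries overlapped in their counting intervals. The fold over control was 6.34 (5.39 to 7.501) in hypoxia and 6.41 (5.47 to 7.56) with T3. Slc2a3, the GLUT3 gene (chromosome 6, 122727809 to 122801640), was at 93.3, 226 and 234 CPM in the same order. It too was low in control alone, at a smaller fold of 2.42 (2.29 to 2.55) in hypoxia and 2.50 (2.38 to 2.64) with T3.

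Per kilobase of merged exons, Slc2a3 remained the larger of the pair in every library. Slc2a1 made up 15.1% of the summed level of both genes in control, 31.9% in hypoxia and 31.4% with added T3. With no length correction these shares were 7.95%, 18.5% and 18.1%. The ratio of Slc2a1 reads to Slc2a3 reads, which does not depend on how libraries are scaled, was 2.62 times higher in hypoxia than in control (2.21 to 3.11). The summed level per kilobase was 15.2 CPM in control and 45.7 in hypoxia, and Slc2a3 added more to it (18.3 CPM per kilobase) than Slc2a1 (12.3).

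**Figure D2:**
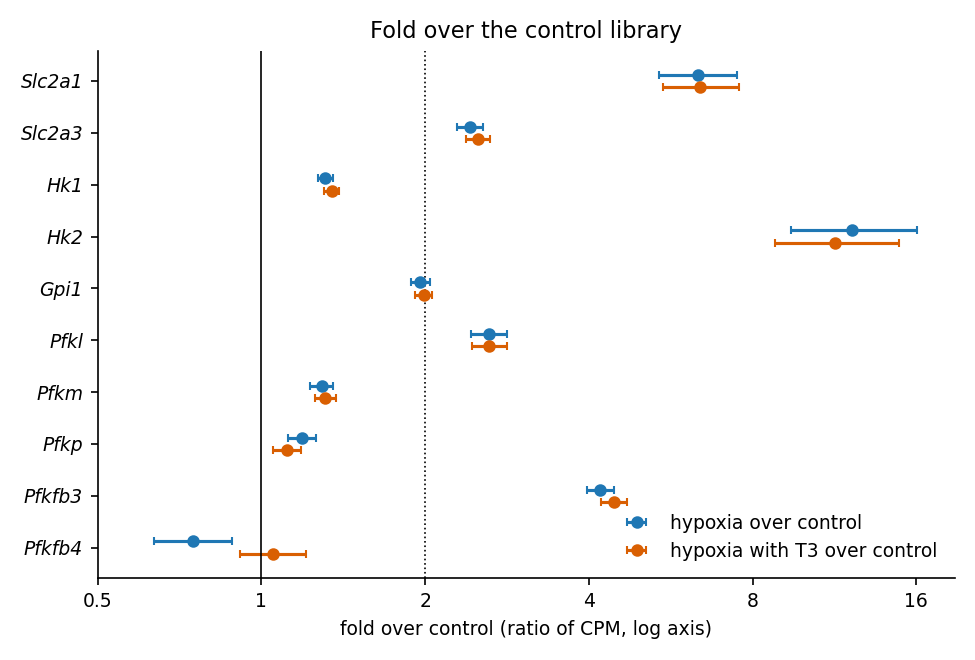
Fold of each gene over the control library (ratio of CPM, log axis), in hypoxia and in hypoxia with T3; bars are 95% intervals from counting error, the solid line marks no difference and the dotted line 2-fold. Hk2, at 12.2 in hypoxia, lies farthest right, and Pfkfb4, at 0.749, is the one member left of the solid line in hypoxia.

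The hexokinases differed most from each other. Hk2 (chromosome 6, 82725025 to 82774454), the isoform of muscle and many tumours, was at 2.97 CPM in control, 36.2 in hypoxia and 33.6 with added T3. The control value rests on 64 reads and the hypoxic ones on 655 and 791, so the fold of 12.2 in hypoxia has a wide interval (9.43 to 16.02). With T3 the fold over control was 11.3 (8.78 to 14.9). Hk1 (chromosome 10, 62268855 to 62379908), the constitutive hexokinase of brain, was at 327, 428 and 440 CPM, again lowest in control, with a fold of 1.31 in hypoxia (1.27 to 1.35). With libraries scaled to equal totals its log2 ratio in hypoxia went from 0.39 to 0.22, so the size of this fold depends on the scaling.

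Even so, Hk1 stayed the main hexokinase transcript. Hk2 was 1.28% of the pair per kilobase in control, 10.8% in hypoxia and 9.85% with added T3, and per kilobase of the longest transcript 0.699%, 6.15% and 5.60%. The ratio of Hk2 to Hk1 reads was 9.31 times higher in hypoxia (7.19 to 12.1) and 8.42 times higher with T3 (6.52 to 10.9). In absolute terms, with the libraries scaled as deposited, the small fold of Hk1 outweighed the large one of Hk2. Hk1 was 11.9 CPM per kilobase higher in hypoxia than in control, and Hk2 5.56. The summed level of the pair was 1.45-fold higher.

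Gpi1 (chromosome 7, 34201330 to 34230336), a single gene without an isoform here, links the hexokinases to phosphofructokinase. It was at 193 CPM in control, 379 in hypoxia and 384 with added T3. The fold was 1.961 in hypoxia (1.89 to 2.04) and 1.99 with T3 (1.92 to 2.06), so that both intervals contain 2 although neither value was called. This nearness to 2-fold depends on the scaling. With libraries scaled to equal totals the log2 ratio of Gpi1 was 0.79 in each comparison, beside 0.97 and 0.99 as deposited. The authors' deposited signed fold of Gpi1 was 1.88 in hypoxia and 1.89 with T3. Of the 31-base words in Gpi1 transcripts, 13.9% also occur in another gene, most of them in the processed pseudogene Gm1840. Some of its reads therefore cannot be assigned firmly. Gm1840 is not among the deposited genes, so any reads from it may have been counted under Gpi1.

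Among the phosphofructokinase subunits, which assemble into tetramers of mixed composition, the liver-type gene stood apart. Pfkl (chromosome 10, 77986947 to 78010083) was at 44.6 CPM in control, 117 in hypoxia and 117 with added T3. Control was the low library, and the fold was 2.62 (2.43 to 2.83) in hypoxia and 2.63 (2.44 to 2.83) with T3. Pfkm, the muscle-type subunit (chromosome 15, 98092589 to 98132451), was at 146, 188 and 191 CPM, a fold of 1.29 in hypoxia (1.23 to 1.36). Of its 31-base words, 9.35% also occur in the overlapping gene Gm26513, which is not among the deposited genes. Pfkp, the platelet-type subunit (chromosome 13, 6579768 to 6648777), was at 98.2, 117 and 109 CPM, a fold of 1.19 in hypoxia (1.12 to 1.26). With T3 its log2 ratio to control was 0.15, and -0.04 with libraries scaled to equal totals, so that direction depends on the scaling. In hypoxia the log2 ratios under equal totals were 0.19 for Pfkm (0.37 as deposited) and 0.07 for Pfkp (0.25 as deposited).

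Pfkl and Pfkp had nearly the same CPM in hypoxia but not in control. Read for read, Pfkl against Pfkp was 2.20 times higher in hypoxia (2.0 to 2.43) and Pfkl against Pfkm 2.03 times higher (1.85 to 2.22). Pfkp against Pfkm was 0.920 times its control ratio (0.852 to 0.994), a small difference in counting terms. Per kilobase, Pfkm held the largest share in each library, 75.7% in control and 68.2% in hypoxia. The share of Pfkl went from 11.6% to 21.2%, and that of Pfkp from 12.7% to 10.6%. With T3 the shares of Pfkl, Pfkm and Pfkp were 21.2%, 69.0% and 9.85%. With no length correction the share of Pfkp was 34.0% in control, 27.7% in hypoxia and 26.2% with T3.

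**Figure D3:**
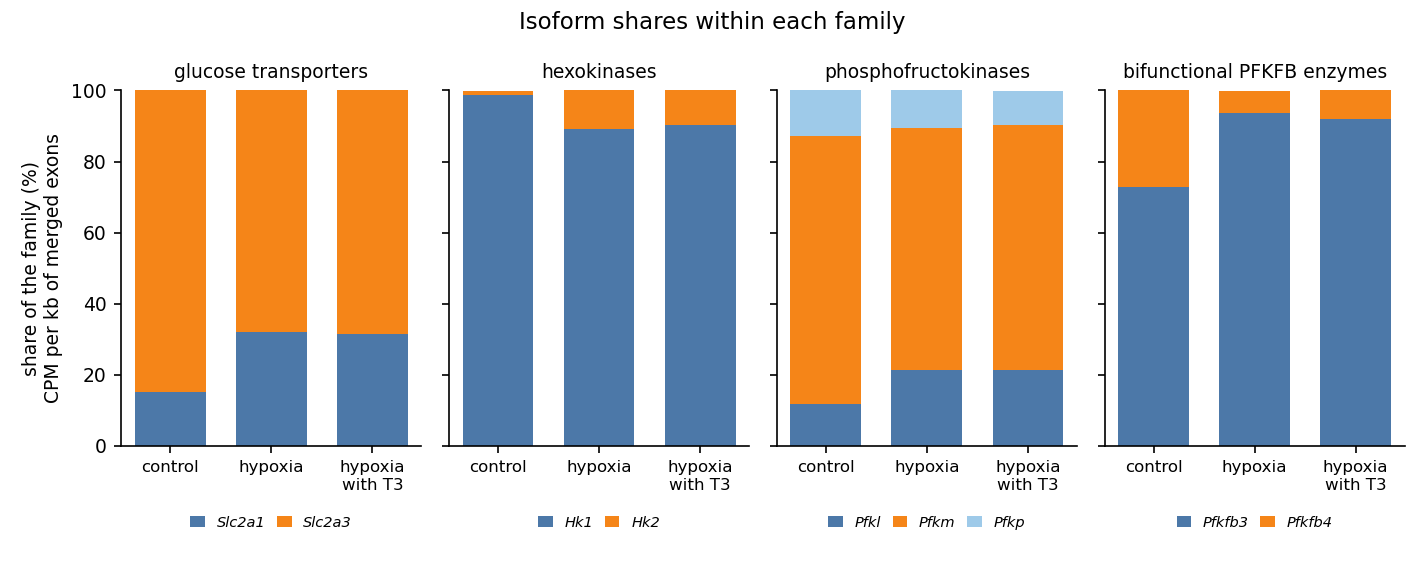
Share of each isoform in the summed level of the members of its family (percent, CPM per kb of merged exons) in the 3 libraries. Other genes of these families, such as Pfkfb1, are not in the sums. The share of Slc2a1 goes from 15.1% in control to 31.9% in hypoxia, that of Hk2 from 1.28% to 10.8%, that of Pfkl from 11.6% to 21.2% and that of Pfkfb3 from 72.7% to 93.7%.

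The bifunctional enzymes went in different directions in hypoxia. Pfkfb3 (chromosome 2, 11471433 to 11554077), whose product strongly favours synthesis of fructose-2,6-bisphosphate and whose protein is kept low in neurons by degradation, was at 73.3 CPM in control, 308 in hypoxia and 326 with added T3. Its fold was 4.20 (3.97 to 4.44) in hypoxia and 4.44 (4.21 to 4.69) with T3. No other member had a larger difference per kilobase of merged exons, 30.99 CPM in hypoxia over control, with Gpi1 next at 28.8. Per kilobase of the longest transcript Gpi1 came first, from 60.5 to 118.6 CPM against 15.3 to 64.1 for Pfkfb3. Pfkfb4 (chromosome 9, 108991778 to 109032228), also known elsewhere as a HIF target, was at 17.7, 13.3 and 18.6 CPM. Here hypoxia without hormone was the low library, 1.34-fold below control (1.13 to 1.58), and the library with T3 was near the control level, with a fold of 1.05 (0.913 to 1.21) whose log2 ratio of 0.07 became -0.12 under equal totals. Of all genes compared, 20.9% had a lower log2 ratio than Pfkfb4 in hypoxia over control.

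The ratio of Pfkfb3 to Pfkfb4 reads was 4.14 in control, 23.2 in hypoxia and 17.5 with added T3. It was thus 5.61 times higher in hypoxia than in control (4.73 to 6.65) and 4.23 times higher with T3 (3.65 to 4.91). Pfkfb3 made up 72.7% of the pair per kilobase in control, 93.7% in hypoxia and 91.9% with T3, and the summed level was 3.26-fold higher in hypoxia.

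Levels of different genes are compared here per kilobase of merged exons. In control the order ran from Pfkm at 43.6 CPM per kilobase through Hk1 at 38.3, Gpi1 at 29.96, Slc2a3 at 12.9, Pfkfb3 at 9.69, Pfkp at 7.32, Pfkl at 6.69, Pfkfb4 at 3.63 and Slc2a1 at 2.30 to Hk2 at 0.497. Only Pfkp and Pfkl overlapped in their counting intervals there. In hypoxia Gpi1 led at 58.7, overlapping with Pfkm at 56.3, followed by Hk1 at 50.2, Pfkfb3 at 40.7, Slc2a3 at 31.2, Pfkl at 17.5, Slc2a1 at 14.6, Pfkp at 8.70, Hk2 at 6.06 and Pfkfb4 at 2.72. The order was the same with T3. Per kilobase of the longest transcript the upper places differed, with Hk1 first in control at 76.4 and Gpi1 first in hypoxia at 118.6, while Hk2 was last in control and Pfkfb4 last in hypoxia by either length.

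The added hormone was set against hypoxia alone to ask what T3 adds under low oxygen. No member was at least 2-fold higher or lower, against 0.126% and 0.063% of all genes compared, nor at least 1.5-fold, against 0.717% and 0.276%. The median log2 ratio was 0.02 for the members and 0.01 for all genes. For Slc2a1, Slc2a3, Hk1, Hk2, Gpi1, Pfkl and Pfkm the counting interval contained 1, and the widest of these, that of Hk2 at 0.930, ran from 0.837 to 1.03. Of these, Slc2a1, Gpi1 and Pfkl also had the opposite sign when the libraries were scaled to equal totals. Pfkfb3 was 1.06-fold higher (1.02 to 1.096) and Pfkp 1.07-fold lower (1.01 to 1.13), small differences with no replicate to measure them against.

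Pfkfb4 was the member that differed most between the hypoxic libraries, at 240 reads without and 437 with T3. Its fold was 1.40 (1.19 to 1.65), and with 1 CPM added its log2 ratio of 0.46 placed it at position 201 from the top of the 12692 genes. The ratio of Pfkfb3 to Pfkfb4 reads was 0.755 times that in hypoxia alone (0.643 to 0.887). The comparison has Pfkfb4 low in the hypoxia library, which also enters its ratio to control, so these values are not independent of each other.

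**Figure D4:**
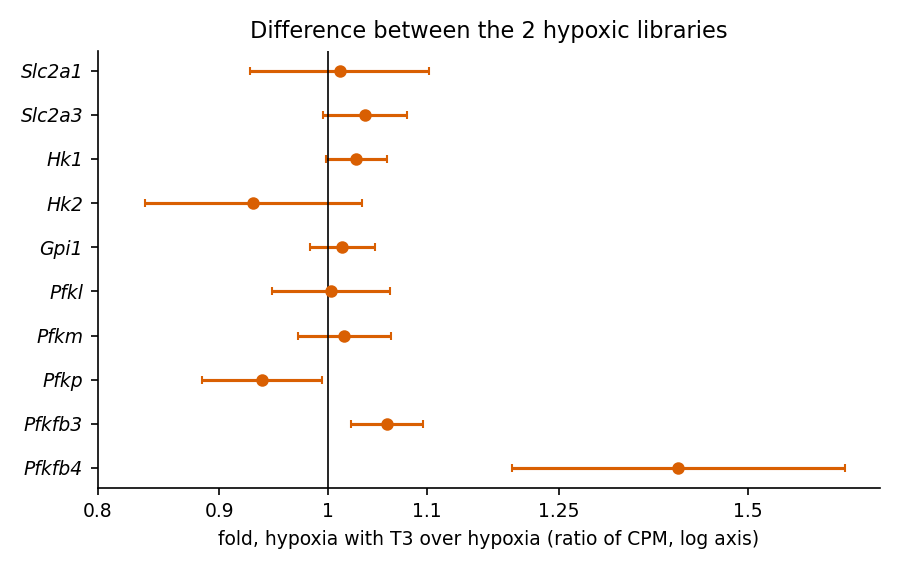
Fold of each gene in hypoxia with T3 over hypoxia (ratio of CPM, log axis); bars are 95% intervals from counting error and the line marks no difference. Pfkfb4 lies at 1.40, and the other 9 members lie between 0.930 and 1.06.

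Set against control, hypoxia with T3 gave calls for Slc2a1, Slc2a3, Hk2, Pfkl and Pfkfb3, 5 higher and none lower. The corresponding shares of all genes compared were 2.06% higher and 4.59% lower. At 1.5-fold, 6 members were higher and none lower, against 8.73% and 13.1%. Both comparisons with control use the same control library. In the authors' deposited tables, from a test that is not named in the sources used here, 2 of the 10 members had a false discovery rate below 0.05 in each. In the authors' deposited table for hypoxia the signed fold of Hk2 was 11.7 (false discovery rate 0.000154) and that of Slc2a1 was 6.07 (0.0165). Pfkfb3 followed with 4.02 (0.133) in that table of the authors, where 0.646% of 13152 genes were below 0.05. In the authors' deposited table for hypoxia with T3, Hk2 had 10.8 (0.000274), Slc2a1 6.10 (0.0144) and Pfkfb3 4.23 (0.0962), and 0.791% of the genes were below 0.05.

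Gene span went with the ratio in these libraries, with lower ratios among longer genes. Among the 2438 genes that span 25 to 50 kb, where Slc2a1, Hk2, Gpi1, Pfkm and Pfkfb4 lie, 0.656% were called higher in hypoxia, at a median log2 ratio of 0.01. Among the 1800 genes of 50 to 100 kb, with Slc2a3, Pfkp and Pfkfb3, 0.278% were higher and 7.61% lower, with a median of -0.22. Hk1 spans 111 kb, and of the 1957 genes of 100 kb or more none was called higher and 17.8% were called lower (median -0.36), beside its own 0.39. Pfkl, at 23.1 kb, lies in the class below 25 kb, where 3.66% of genes were higher. The part of span in the differences was not tested.

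**Figure D5:**
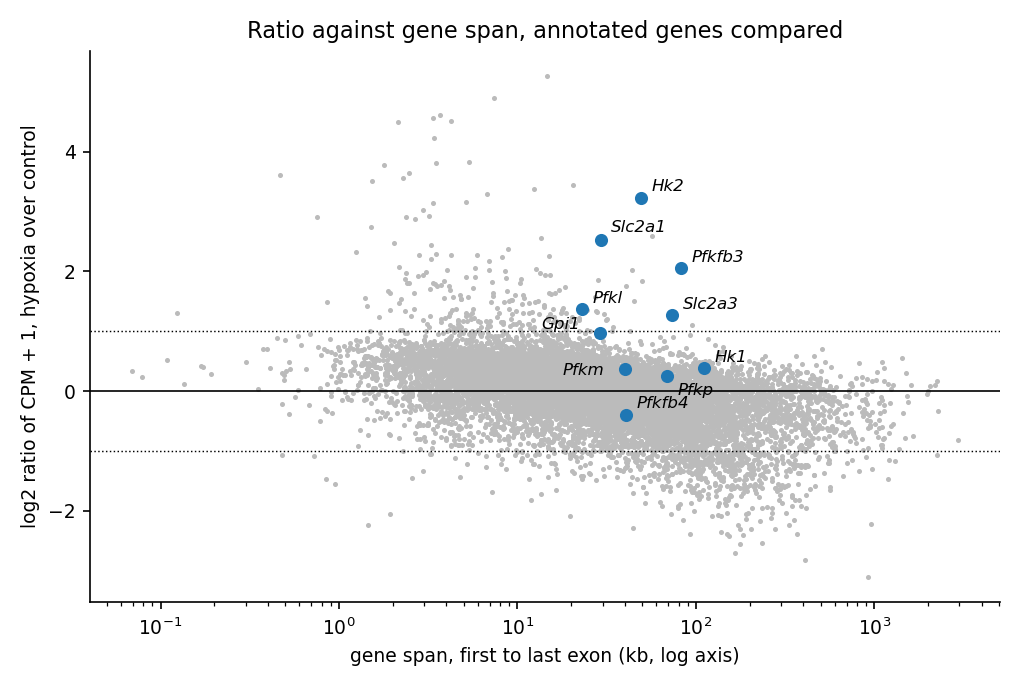
Log2 ratio of CPM + 1 in hypoxia over control against gene span (kb, log axis) for the genes compared that have an annotated span (grey), with the 10 members in blue; dotted lines mark 2-fold. Pfkfb3 at 82.6 kb and Slc2a3 at 73.8 kb lie above the dotted line, where 0.278% of genes of 50 to 100 kb lie.

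The rest of the glucose pathway was described from lists of named genes. Among 24 relatives (other sugar transporters, hexokinases and PFKFB enzymes, the phosphatases that oppose them, and regulators of uptake), 11 passed the filter on low values. Of these none was called higher in hypoxia, against 1.99% of all genes, and 1 was called lower, against 4.92%. With T3, 3 were called lower, against 4.59%. The gene called lower in both was Slc2a13, the proton-coupled inositol transporter, at 32.4 CPM in control, 14.2 in hypoxia and 11.99 with T3. Pfkfb1, the liver-type bifunctional enzyme, was low throughout, at 2.04, 0.939 and 0.510 CPM, and was called lower with T3 against control. So was Arrdc4, an arrestin-like gene related to the glucose uptake inhibitor Txnip, at 31, 19.5 and 14.2 CPM. G6pc3, a glucose-6-phosphatase subunit, was at 12.7, 17.2 and 21.0 CPM and was not called.

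Among 24 genes of the branches that leave the upper pathway (pentose phosphate, glycogen, hexosamine and mannose), 23 were compared, with none higher and 1 lower in hypoxia, near the 4.92% of all genes called lower. That gene was Gfpt2, a rate-limiting enzyme of hexosamine synthesis, at 11.5 CPM in control, 4.81 in hypoxia and 6.46 with T3. H6pd, the hexose-6-phosphate dehydrogenase of the endoplasmic reticulum, was at 6.16, 2.60 and 3.10 CPM and just missed the rule. Gys1, glycogen synthase, was at 25.8, 44.6 and 46.0 CPM, and the phosphoglucomutase listed as Pgm2 at 26.3, 44.7 and 41.8 CPM, neither called. The median log2 ratio of the branch genes was 0.19, beside 1.12 for the members.

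The 11 genes of lower glycolysis, from aldolase to lactate dehydrogenase, had 6 called higher in hypoxia, against 1.99% of all genes, and 0 lower, against 4.92%. Their median log2 ratio was 1.01. Their ratios kept to a narrower range than those of the members, 0.39 to 1.41 against -0.39 to 3.23. Ldha, whose product regenerates NAD+ as it turns pyruvate into lactate, was highest at 2.66-fold. Pgk1 (1.92-fold in hypoxia, 2.02-fold with T3) was called with T3 only, a difference between comparisons that was not tested. Aldoa, Tpi1, Gapdh, Pgam1 and Eno1, all enzymes of the lower pathway, were between 2.01-fold and 2.33-fold higher in hypoxia.

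Of 15 regulators, 14 were compared and none was called in hypoxia, a count that says little beside the 1.99% and 4.92% of all genes called higher and lower. Hif1a, the oxygen-regulated subunit of HIF, was at 104 CPM in control, 96.2 in hypoxia and 103 with T3. Myc, a transcriptional activator of glycolytic genes, was at 34.0, 67.3 and 67.5 CPM, just short of the rule. Egln3, a HIF prolyl hydroxylase that is itself a HIF target, was at 4.03, 7.68 and 9.82 CPM and was called higher with T3 against control. Prkaa1, a catalytic subunit of the energy sensor AMPK, was at 29.0, 17.1 and 18.8 CPM, and Ppargc1a, a coactivator of mitochondrial genes, at 34.7, 22.4 and 24.5 CPM. As a reference outside glycolysis, the HIF target Vegfa, the angiogenic growth factor, was 3.13-fold higher in hypoxia, between Pfkl and Pfkfb3.

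The genes most like a member in pattern were taken as the 3 nearest by Euclidean distance over the pair of log2 ratios to control, which share the control library. For Hk2 these were Egr1, Egr2 and Ppp1r15a, at distances of 0.08, 0.08 and 0.10, and for Slc2a1 they were Csrnp1, Tnfrsf12a and Dusp1, at 0.05, 0.14 and 0.19. Stc2 and Ddit4 lay nearest to Pfkfb3, at 0.02 and 0.05, followed by the retrotransposed enolase Eno1b at 0.13, whose reads may be shared with Eno1. Next to Slc2a3 were Pdk1, Narf and Taf1d (0.03, 0.03 and 0.04), and next to Pfkl were Csrnp2, Ldha and Chrm4 (0.02, 0.04 and 0.07). Sphkap, Hmgcll1 and Slc9a3r1 (0.04, 0.06 and 0.06) lay nearest to Pfkfb4. The number of genes within 0.2 was 3 for Slc2a1 and 109 for Pfkfb4, so that a near neighbour means less for the latter. For Slc2a1 and Hk2 the counting intervals of the fold in hypoxia (5.39 to 7.501 and 9.43 to 16.02) were, in log2, wider than the distances to their neighbours. The order of those neighbours is therefore not settled by these reads.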

How the data were processed

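Strand-specific RNA libraries were made with a KAPA kit, per the labels' protocols. Tools named in the submitters' processing notes, with no roles given, are RSEM 1.2.15, Bowtie2 2.1.0 and bcl2fastq 2.17, with build mm10. The deposited table holds CPM, scaled by the authors to an effective library size (TMM per the file name). Dividing by the CPM of 1 read gave whole numbers, to within 0.01, for 100% of values in each library, so reads were recovered. No count test across groups was possible with 1 library each, so the number of genes that such a test calls cannot be given. The authors' deposited tables for both comparisons with control hold a signed fold (treated as a score) beside p-values and false discovery rates of an unnamed test. Their signal columns, on a scale the authors do not state, were not used.

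For the log2 ratio 1 CPM was added to each value, and genes averaging under 1 CPM were left out. Printed folds are ratios of CPM without it. Intervals and floors cover counting error only, since PCR copies cannot be told from separate molecules. Where 0 reads were seen, up to 3 are allowed, which is between 0.128 and 0.166 CPM. For 6 isoform pairs the read ratio within a library was compared between libraries, with an interval from the 4 counts. Lengths, spans and coordinates came from GENCODE M21 (GRCm38), matched by symbol for 95.5% of genes compared. Merged exons include rare and retained-intron transcripts and so understate the level of genes with many of them. The genes named were all 10 members, every gene of the 4 pathway lists past the rule or among the 4 largest hypoxia ratios of its list, Hif1a, Vegfa, and the 3 nearest genes in pattern averaging 5 CPM or more. Tigar was matched through a synonym. The members and lists were chosen with earlier results of these data known. Alternatives covered the added value, the scaling, the filter, the fold rule and the gene length, and for members against control the authors' deposited fold. The procedure was tested on simulated data. Software was matplotlib 3.10.9, scipy 1.17.1, pandas 2.3.3, numpy 2.4.6 and Python 3.11.15.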

Additional observations from a re-analysis of the deposited data

How the results depend on the processing

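The members called, 5 higher and none lower against control and none between the hypoxic libraries, stayed within 1.5 times that number under each of the 6 alternatives (5 alternatives gave the identical number, and the 1.5-fold rule 6). The counts over all genes below were compared after seeing the data. Scaling libraries to equal totals moved the median of all genes in hypoxia over control from 0.05 to -0.10 and that of the members from 1.12 to 0.94. Of the members' log2 ratios over the 3 comparisons, 14 then moved by more than the half-width of their counting interval and 16 did not. In the authors' deposited folds against control, 5 lay farther than that from the ratios here and 15 did not. Genes at least 2-fold lower then numbered 949 in hypoxia and 898 with T3 (624 and 582 as deposited), beside 188 and 196 higher (252 and 262). With 5 CPM added, genes called were 155 higher and 286 lower in hypoxia, 167 and 269 with T3, and 8 and 1 between the hypoxic libraries. On CPM + 1 the Hk2 to Hk1 ratio was 7.16 times higher in hypoxia and 6.49 times higher with T3, as the added value weighs on a gene at 2.97 CPM. No paired analysis was possible because each group has 1 library.

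Isoform shares depend on the length used. Per kilobase of the longest transcript, the shares in control, hypoxia and hypoxia with T3 were 0.699%, 6.15% and 5.60% for Hk2, 75.0%, 94.4% and 92.7% for Pfkfb3, 16.2%, 28.5% and 28.5% for Pfkl, 68.5%, 59.3% and 60.1% for Pfkm, and 15.3%, 12.2% and 11.4% for Pfkp. For Slc2a1 they were 30.3% and 29.8% in the hypoxic libraries. With no length correction they were 0.899%, 7.79% and 7.10% for Hk2, 80.5%, 95.9% and 94.6% for Pfkfb3, 15.5%, 27.7% and 28.1% for Pfkl, 50.5%, 44.6% and 45.7% for Pfkm, 34.0%, 27.7% and 26.2% for Pfkp, and 7.95%, 18.5% and 18.1% for Slc2a1.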
